A study of Mus musculus with 7 samples.

Results

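Klf4 and its relatives Klf2, Klf3, Klf5, Klf6, Klf7, Klf9, Klf10, Klf11 and Klf15 are Kruppel-like factors, and these 10 genes were picked by symbol out of 55536 genes in a table of RNA sequencing counts. The libraries came from mouse pancreatic alpha cells, the glucagon-secreting cells of the islet, sorted by a red fluorescent reporter. The strain is given as C57B1/6J. Control mice had the genotype Nkx2.2+/+;Gcg-iCre;Rosa26:tdTomato (4 libraries), with the reporter locus written Rosa25 in the design text. Knockout (KO) mice were Nkx2.2fl/fl, so that both Nkx2-2 alleles carry sites that Cre recombines, together with the same Gcg-iCre and Rosa26:tdTomato alleles (3 libraries). Cre driven by the glucagon gene and the tdTomato reporter were therefore shared by both groups, and the sort was for cells in which that Cre had acted. Marker genes of acinar, endothelial, mesenchymal and leukocyte cells still had counts in every library. The labels give no age or treatment, do not say whether animals were pooled, and do not say which part of Nkx2-2 is removed. Nothing in them states that the libraries came from separate animals. The p-values therefore measure only the spread between these libraries, part of which may be technical.

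Kruppel-like factors are transcription factors that bind CACCC boxes and GC-rich boxes through zinc fingers at the end of the protein, and they act as activators or repressors according to their partners. Several of them, among them Klf2, Klf4, Klf6 and Klf10, belong to the early genes that are induced within minutes of a stimulus, including tissue dissociation. Klf4 is best known as a factor of cellular reprogramming and of epithelial differentiation in gut and skin, and the title of the series names it beside NKX2.2 as a regulator of alpha cell identity. Whether deletion of Nkx2-2 alters the transcript levels of Klf4 and its family in alpha cells is the question that these libraries can address.

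Libraries held from 45483504 to 72456557 counts in the controls and from 53717640 to 65267762 in the KO group. The number 4 on one of the KO columns belongs to no KO sample, and that column is called the unnumbered KO library. Values below follow the order controls 1 to 4, then KO 1, KO 2, unnumbered. Control 4 and the unnumbered KO library were the deepest, and control 4 had counts for 31024 genes against 23150 to 25873 in the other libraries. Summed Y-linked genes had 4.54, 0, 8764 and 8844 normalized counts (counts divided by the size factor of each library) in controls and 1675, 3491 and 11338 in KO libraries. These Y-linked sums, which mark RNA of males, differed within both groups, with KO 1 and KO 2 between the extremes. Controls 1 and 2 had almost none, whereas every KO library had some, so the libraries were not matched for sex. Controls 1 and 2 thus held other material than controls 3 and 4. Nkx2-2 itself had 8596, 11199, 12297 and 9782 normalized counts in controls and 7758, 7534 and 7694 in KO libraries. All KO values lay below all control values, with a log2 fold change (KO over control) of -0.45 (standard error 0.13, adjusted p 0.0244 in DESeq2, 0.152 by the quasi-likelihood test of edgeR). A gene-wide count also reads the part of the gene that Cre leaves in place, so it checks the labels only in its direction. Leaving out control 2 (adjusted p 0.0917), control 3 (0.133), KO 1 (0.155), KO 2 (0.116) or the unnumbered library (0.0672) ended that call in DESeq2. Alpha cell markers took from 6.15% to 14.2% of the counts and none of the 10 was at 0 in all libraries. Of these 10 markers, 2 had estimates above 0, and 7 were past the DESeq2 threshold and lower in KO (background for lower calls 1.94%). Those past the threshold included Gcg, Irx1, Irx2, Slc38a5, Slc7a2 and Ttr. Of those named, Slc38a5 and Ttr also passed in edgeR, where the adjusted p of Gcg was 0.175.

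Per length, Klf4 was the most abundant of the family in every library. Its level was 2975 ± 483 normalized counts per kilobase (kb) of exon (SD, n = 4) in controls, against 2440 ± 448 (SD, n = 3) in KO, and over all libraries it exceeded 98.2% of the detected protein-coding genes. Klf11 came next in controls with 1195 ± 115, followed by Klf9 with 895 ± 67.0, Klf6 with 742 ± 81.1 and Klf10 with 544 ± 35.9. Below them stood Klf2 with 473 ± 51.4, Klf7 with 318 ± 50.02, Klf5 with 288 ± 46.1, Klf3 with 157 ± 10.9 and Klf15 with 92.1 ± 31.7. The control ranges of neighbours in this order overlapped for Klf10 and Klf2 and for Klf7 and Klf5, and did not overlap for the other 7 neighbouring pairs. In KO libraries Klf2 (620 per kb) stood above Klf10 (545) and Klf5 (353) above Klf7 (314), and the ranges overlapped within both of these pairs. They also overlapped between Klf11 (1059) and Klf9 (1014) and between Klf9 and Klf6 (908). Klf4 made up 29.1% ± 2.55 (SD, n = 4) of the summed counts of the 10 genes in controls, against 24.1% ± 3.18 (SD, n = 3) in KO, and the libraries of the groups overlapped. The order depends on the length used: by coding length Klf4 stayed highest, Klf9 moved to rank 2 and Klf2 to rank 9.

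**Figure D1:**
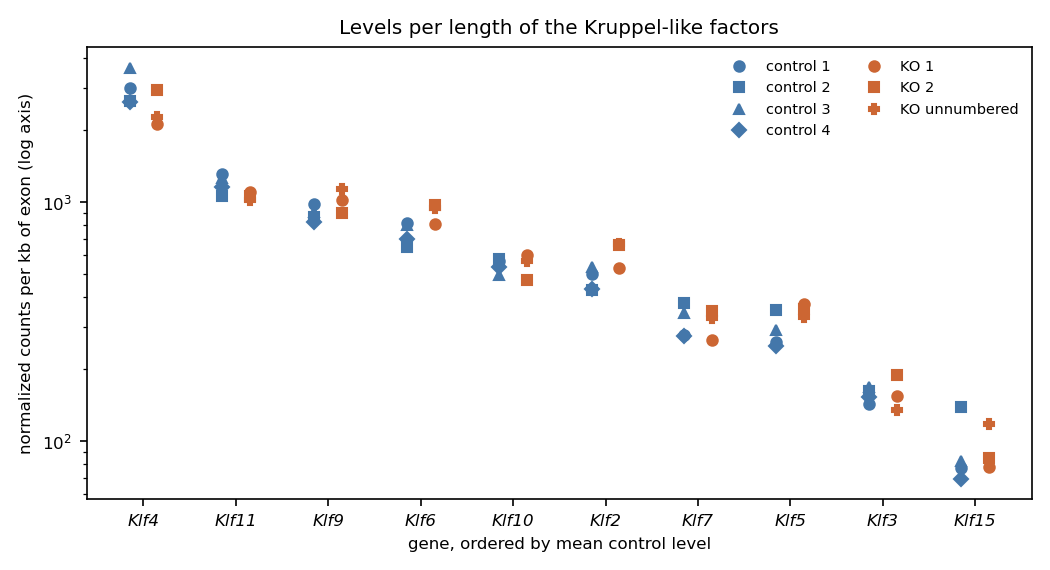
Normalized counts per kb of exon (log axis) for the 10 Kruppel-like factors, ordered along the horizontal axis by their mean control level, with 1 point per library and blue for control, orange for KO. The lowest library of Klf4 has 2114 per kb, and no library of another gene exceeds 1310 per kb.

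The comparison of KO with control asked whether any of these genes responds to the deletion, and none of the 10 passed the threshold of 0.05 after adjustment over all genes, in DESeq2 or in edgeR. DESeq2 gave an adjusted p to all 10 and to 19719 genes in all. It called 3.9% of these, 386 higher in KO (1.96%) and 383 lower (1.94%). The test of edgeR called 1.05% of 19310 genes, 78 higher (0.404%) and 125 lower (0.647%). Scaled by library totals, DESeq2 called 695 higher and 298 lower. Unadjusted p-values under 0.05 were found for 2 of the 10 in DESeq2 (background 11.3%) and for 3 of the 10 in edgeR (background 10.5%). The KO and control libraries overlapped for each of the 10 genes, where 11.4% of all genes tested did not overlap. The median log2 fold change of the 10 was 0.03, against 0.01 over all genes tested. Their summed level was 31070 ± 2390 normalized counts (SD, n = 4) in controls, against 30763 ± 1617 (SD, n = 3) in KO.

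Klf4 (ENSMUSG00000003032, GRCm38 chromosome 4, 55527143 to 55532466, minus strand) shared no exon with a gene of the opposite strand. It had 9159, 8057, 11120 and 7946 normalized counts in controls and 6446, 9000 and 6876 in KO libraries. The lowest values were those of KO 1 and the unnumbered KO library, and KO 2 lay among the controls. The KO mean was 82.0% of the control mean, with a log2 fold change of -0.29 (standard error 0.16; adjusted p 0.563 by DESeq2, 0.615 by edgeR). The 95% interval ran from a fold of 0.658 to a fold of 1.02, so the interval holds both a lower level and an equal one. Leaving out 1 library at a time gave log2 fold changes from -0.45 (without KO 2) to -0.17 (without control 3), and the lowest adjusted p of these fits was 0.119. In bulk RNA, fewer cells with a transcript and less transcript per cell cannot be told apart.

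Klf2 (ENSMUSG00000055148, chromosome 8, 72319033 to 72321656, plus strand) is the closest relative of Klf4 in function in vessel walls, where both respond to flow. It had the largest estimate of the 10, with 924, 793, 983 and 796 normalized counts in controls and 980, 1221 and 1233 in KO libraries. KO 1 lay just under control 3, so the groups overlapped by that pair alone. The log2 fold change was 0.39 (standard error 0.16; adjusted p 0.188 by DESeq2, 0.282 by edgeR), with a 95% interval from a fold of 1.06 to a fold of 1.62 before adjustment for multiple tests. With library totals in place of size factors, which moved the median log2 fold change of all genes by 0.10, the value was 0.50 and the adjusted p 0.0406, 1 call among the 10 against a background of 5.7% under that scaling. Endothelial markers, which belong to a cell type rich in Klf2, summed to between 457 and 729 normalized counts over 10 genes in controls and to 411, 1282 and 742 in KO libraries, none of them at 0 in all libraries, and 8 of the 10 had estimates above 0. KO 1 had the lowest of these sums and KO 2 the highest, and their part in the Klf2 values was not tested.

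Klf6 (ENSMUSG00000000078, chromosome 13, 5861482 to 5870394, plus strand), an early gene induced by injury, had 3582, 2847, 3528 and 3074 normalized counts in controls and 3558, 4256 and 4145 in KO libraries. As with Klf2, only KO 1 lay within the control range. Its log2 fold change was 0.29 (standard error 0.13; adjusted p 0.281 by DESeq2, 0.373 by edgeR). As shares of the summed counts of the family, which need no scaling between libraries, Klf6 took 10.5% ± 0.735 (SD, n = 4) in controls, against 12.9% ± 0.685 (SD, n = 3) in KO. Klf2 took 2.81% ± 0.117 in controls, against 3.71% ± 0.337 in KO. For these 2 of the 10 shares the groups did not overlap, and the same was true of 10.2% of all genes tested when their counts were divided by the same sum. Each share depends on the other 9 genes, Klf4 above all.

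The promoters of Klf4, Klf2 and Klf6 are shown because the estimate of Klf4 differed in sign from those of Klf2 and Klf6, although none of these genes was past the threshold. Each sequence holds the 250 bases before the transcription start in RefSeq (GRCm38.p6), 5′ to 3′ on the strand of the gene, and capitals mark CACCC or GGGCGG in either orientation. The windows are chr4:55532476-55532725 (minus strand), chr8:72318812-72319061 (plus strand) and chr13:5861239-5861488 (plus strand). RefSeq starts can differ from those of the GENCODE annotation used for gene positions, so "before" refers to the RefSeq start only. The Klf2 window runs past the GENCODE start at 72319033, with its CACCC match beyond that start, and the Klf6 window runs past 5861482.
Klf4: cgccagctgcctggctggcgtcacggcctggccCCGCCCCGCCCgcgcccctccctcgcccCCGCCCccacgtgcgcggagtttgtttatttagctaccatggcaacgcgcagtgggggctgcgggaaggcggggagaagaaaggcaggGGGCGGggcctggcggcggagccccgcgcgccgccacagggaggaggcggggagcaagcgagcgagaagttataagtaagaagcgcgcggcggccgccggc
Klf2: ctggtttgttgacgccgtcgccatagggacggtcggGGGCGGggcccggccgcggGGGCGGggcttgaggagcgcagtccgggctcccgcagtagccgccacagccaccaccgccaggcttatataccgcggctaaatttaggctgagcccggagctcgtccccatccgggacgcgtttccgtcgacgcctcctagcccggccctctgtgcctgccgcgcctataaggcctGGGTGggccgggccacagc
Klf6: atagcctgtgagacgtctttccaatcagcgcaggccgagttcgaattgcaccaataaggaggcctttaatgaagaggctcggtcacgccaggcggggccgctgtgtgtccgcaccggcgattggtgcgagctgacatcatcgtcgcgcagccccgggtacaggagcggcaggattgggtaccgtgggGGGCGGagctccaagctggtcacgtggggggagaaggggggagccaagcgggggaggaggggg
The GC box GGGCGG, a site type bound by Kruppel-like and Sp factors, occurred 4 times before Klf4, 2 times before Klf2 and 1 time before Klf6. CACCC occurred 1 time before Klf2 and 0 times before Klf4 and Klf6. RefSeq windows were matched for 8 of the 10 genes, of which 7 held GGGCGG and 5 held CACCC. The windows of Klf3 and Klf11 also reached past the GENCODE start, and that of Klf7 lay wholly inside the GENCODE gene. Besides those shown, GGGCGG occurred 6 times before Klf3, 4 times before Klf11, 1 time before Klf7 and Klf15 and 0 times before Klf9. A relation of these numbers to the fold changes was not tested. Over 32851 promoter windows of the same length, 32.7% held GGGCGG and 52.0% held CACCC. These windows were not matched for base content, which was 74.0% G or C before Klf4, 71.2% before Klf2 and 64.8% before Klf6. The core of the NK2 homeodomain site, TNAAGTG, was in 0 of the 8 windows and in 10.1% of all windows. Both strands were searched, and matches to GGGCGG could overlap each other, as they do before Klf4. A match describes letters and not a bound site.

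Ratios between the 10 genes within a library are likewise free of scaling. Klf2 had 0.0970 ± 0.00580 counts per count of Klf4 (SD, n = 4) in controls, against 0.156 ± 0.0221 (SD, n = 3) in KO. By library the ratio was 0.101, 0.0984, 0.0884 and 0.1002 in controls and 0.152, 0.136 and 0.179 in KO. All KO ratios were above all control ratios. Klf4 had 2.78 ± 0.276 counts per count of Klf6 in controls and 1.86 ± 0.232 in KO, again without overlap. These pairs were picked from 45 after their values were seen. In all, 7 of the 45 pairs (15.6%) did not overlap, and so did 16.2% of all pairs of tested genes with a mean of at least 100 normalized counts, so the family showed no more such separation than gene pairs at large.

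**Figure D2:**
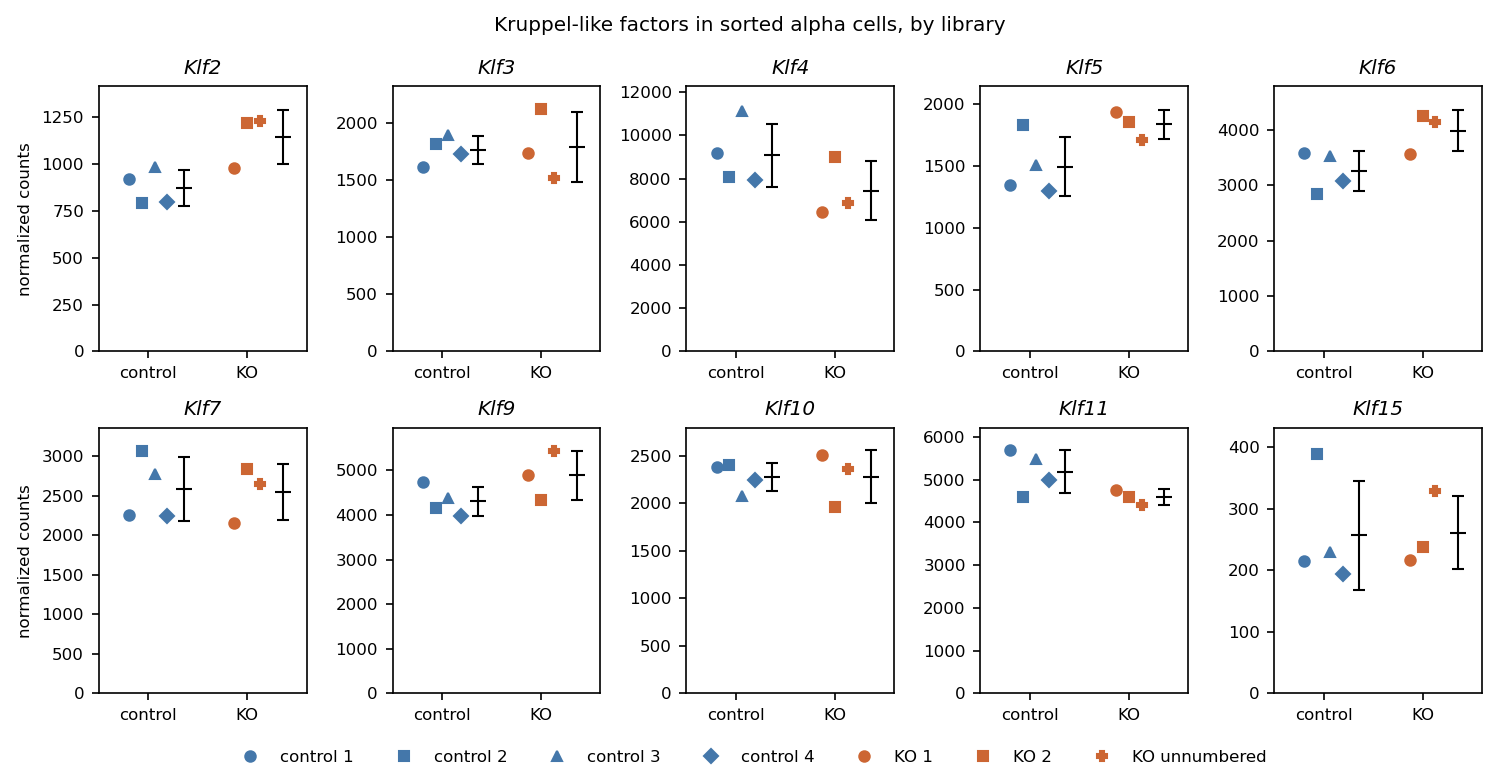
Normalized counts (vertical axes, each from 0) of the 10 Kruppel-like factors in 4 control (blue) and 3 KO (orange) libraries, with the mean and SD in black beside each group. In each panel the groups overlap, and for Klf2 and Klf6 KO 1 is the only KO library inside the control range.

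Klf5, Klf11 and Klf10 differ in their known roles. Klf5 (chromosome 14, 99298691 to 99315036), a factor of proliferating epithelium, had 1346, 1829, 1509 and 1299 normalized counts in controls and 1941, 1858 and 1709 in KO libraries, where control 2 alone reached the KO range. Its log2 fold change was 0.30 (standard error 0.15; adjusted p 0.45 by DESeq2). Klf11 (chromosome 12, 24651274 to 24662789), whose human counterpart has been linked to a monogenic diabetes and to insulin gene control, had 5685, 4585, 5488 and 4989 in controls and 4770, 4601 and 4411 in KO libraries. Only control 2 lay among the KO values, and the log2 fold change was -0.18 (standard error 0.11; adjusted p 0.671 by DESeq2). Klf10 (chromosome 15, 38291463 to 38300706), an early target of TGF-beta signalling and the nearest relative of Klf11, had 2376, 2401, 2075 and 2241 in controls and 2501, 1964 and 2361 in KO libraries. The KO range of Klf10 enclosed the control range, and its 95% interval ran from a fold of 0.842 to a fold of 1.19.

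Klf9 (chromosome 19, 23141226 to 23168134), a glucocorticoid-induced and clock-controlled factor, had 4726, 4161, 4373 and 3974 normalized counts in controls and 4898, 4329 and 5427 in KO libraries. KO 1 and the unnumbered KO library were above all controls and KO 2 was not, and the log2 fold change was 0.18 (standard error 0.12; adjusted p 0.704 by DESeq2). Among 9 clock genes 0 passed in DESeq2 (background 3.9%) and 0 in edgeR (1.05%). In each tool 1 had an unadjusted p under 0.05 (background 11.3% in DESeq2 and 10.5% in edgeR). All 9 estimates were above 0, with a median log2 fold change of 0.21. Per3, a repressor of the clock, had 2427, 2029, 1577 and 2568 normalized counts in controls and 3233, 2059 and 4493 in KO libraries. Cry2, another repressor, had 15795, 13268, 12468 and 12790 in controls and 16620, 12474 and 21165 in KO. Per3 and Cry2 were chosen after their values were seen, and both were higher in the same KO libraries as Klf9. Per2, Nr1d1, Nr1d2 and Dbp also had their lowest KO value in KO 2. The others on the list went the other way, with their highest KO value in KO 2. These were Arntl (1060, 1737 and 1273 in KO libraries), Clock (6633, 7309 and 7008) and Cry1 (782, 963 and 885). The part of the clock in the Klf9 values was not tested. The glucocorticoid list, with the receptor gene Nr3c1 and its target Fkbp5, had 0 of 6 tested genes past the threshold in DESeq2 and in edgeR. It had 0 at an unadjusted p under 0.05 in either tool, against the same backgrounds.

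The remaining members, Klf3, Klf7 and Klf15, had estimates near 0. Klf3 (chromosome 5, 64803388 to 64832901), a repressor that recruits CtBP, had 1611, 1814, 1897 and 1723 normalized counts in controls and 1740, 2118 and 1515 in KO libraries, and the KO values enclosed the control values. Klf7 (chromosome 1, 64029447 to 64122282, minus strand), a factor of neuronal development, had 2253, 3064, 2781 and 2241 in controls and 2150, 2845 and 2652 in KO. Exons of the opposite strand, mainly of the long RNA Gm26649, covered 39.4% of the exon length of Klf7, so its counts are uncertain. Klf15 (chromosome 6, 90462576 to 90475238), an activator of amino acid breakdown in liver and muscle, was the least abundant of the 10, with 216, 388, 230 and 194 in controls and 217, 238 and 329 in KO. Control 2 was the highest and the control SD was 34.5% of the mean. The 95% intervals of the fold ran from 0.833 to 1.24 for Klf3, from 0.792 to 1.23 for Klf7 and from 0.668 to 1.55 for Klf15, which is the least closely bounded of the 10.

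Of 16 further Kruppel-like and Sp factors, DESeq2 gave an adjusted p to 10. Among these Klf8 alone was past the threshold, and it was lower in KO (background for lower calls 1.94%). Klf8 (ENSMUSG00000041649, chromosome X, 153237466 to 153396132) encodes a repressor that recruits CtBP. It had 589, 583, 580 and 588 normalized counts in controls and 422, 435 and 420 in KO libraries, so the groups did not overlap. The control SD was 0.71% of the mean, on raw counts of 444 to 814. That is less than counting error alone would give, so the distance between the groups cannot be judged against it. The log2 fold change was -0.46 (standard error 0.14), and the adjusted p was 0.0292 by DESeq2 but 0.146 by edgeR. The call did not outlast the loss of any library: the adjusted p was 0.169, 0.15, 0.165 and 0.109 when each control in turn was left out, and 0.289, 0.168 and 0.211 when each KO library was. The log2 fold change stayed between -0.48 and -0.45 in these fits. With library totals the adjusted p was 0.165, and with libraries blocked by the numbers in the column names it was 0.205.

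Klf12, another repressor, had 2436, 2697, 2760 and 3855 normalized counts in controls and 1788, 1752 and 2608 in KO libraries, with a log2 fold change of -0.52 (adjusted p 0.153 in DESeq2). The 2 deepest libraries had the highest value of their group. Without both of them the log2 fold change was -0.57 and the adjusted p 2.43e-05, and without the unnumbered KO library alone they were -0.73 and 0.00651. With libraries blocked by the numbers in the column names, again without control 3, they were -0.55 and 3.45e-05. The DESeq2 call was made in 7 of the 22 alternatives, all with fewer libraries or an added term. Klf13, Klf16, Sp1, Sp2, Sp3 and Sp4 had log2 fold changes between -0.18 (Sp1) and 0.03 (Sp2), none past the threshold. Klf1, Klf14, Sp5, Sp6, Sp7, Sp8 and Sp9 had means under 100 normalized counts. Klf17 had 0 counts in all 7 libraries, which would allow up to 3 counts in each from counting error only, if counts were independent. Small counts were mostly even, so the limit is larger than that.

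**Figure D3:**
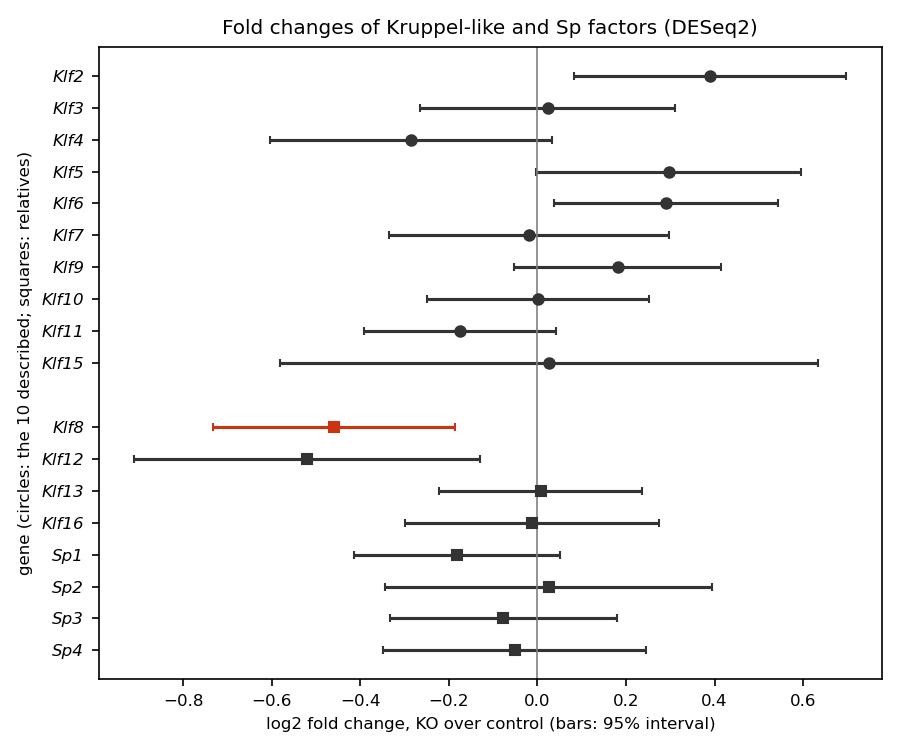
Log2 fold changes of KO over control from DESeq2 (horizontal axis, bars are unadjusted 95% intervals) for the 10 Kruppel-like factors (circles) and 8 relatives with at least 100 normalized counts (squares). Klf8, in red at -0.46, is the gene with an adjusted p under 0.05, and the circles run from -0.29 for Klf4 to 0.39 for Klf2.

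Genes that work with or around the family were described from lists, chosen with earlier results of these data known. Of 10 cofactors, including the acetyltransferases Ep300 and Crebbp and the corepressors Sin3a and Ctbp2, 0 passed in DESeq2 (background 3.9%) and 0 in edgeR (1.05%). In each tool 1 had an unadjusted p under 0.05 (background 11.3% in DESeq2 and 10.5% in edgeR), and the median log2 fold change of the list was -0.03. Of 10 genes of the ERK5 and MEF2 route that induces Klf2 and Klf4, with the cerebral cavernous malformation genes that restrain it, 0 passed in either tool. In each tool 2 had an unadjusted p under 0.05, against the same backgrounds (median 0.00).

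Among the listed target genes, 1 passed in both tools. Cdkn1a, which encodes the cell cycle inhibitor p21 and is a known target of Klf4 and Klf6, had 867, 1375, 1099 and 1187 normalized counts in controls and 2479, 3268 and 2660 in KO libraries. Each KO library stood above each control, and the gene rose with a log2 fold change of 1.31 (standard error 0.18; adjusted p 1.22e-10 by DESeq2, 0.0114 by edgeR). The gene kept its DESeq2 call whichever library was left out, and an opposite-strand gene model shares 7.68% of its exon length. Of the 8 genes listed as known targets of the family, Cdkn1a was the 1 past the DESeq2 threshold (background for higher calls 1.96%), and the list's median log2 fold change was 0.27. In each tool 3 of the 8 had an unadjusted p under 0.05 (background 11.3% in DESeq2 and 10.5% in edgeR). For 2 of the 8 the groups did not overlap (background 11.4%).

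Of the factors that act with Klf4 in reprogramming, Myc had measurable levels and Pou5f1, Sox2, Nanog and Esrrb were at or near 0 in all libraries. Myc had 522, 692, 374 and 319 normalized counts in controls and 908, 966 and 768 in KO libraries, again without overlap. It rose with a log2 fold change of 0.89 (adjusted p 0.0258 by DESeq2, 0.182 by edgeR). The call ended without control 1 (adjusted p 0.0551), control 3 (0.141), KO 1 (0.2) and KO 2 (0.18).

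**Figure D4:**
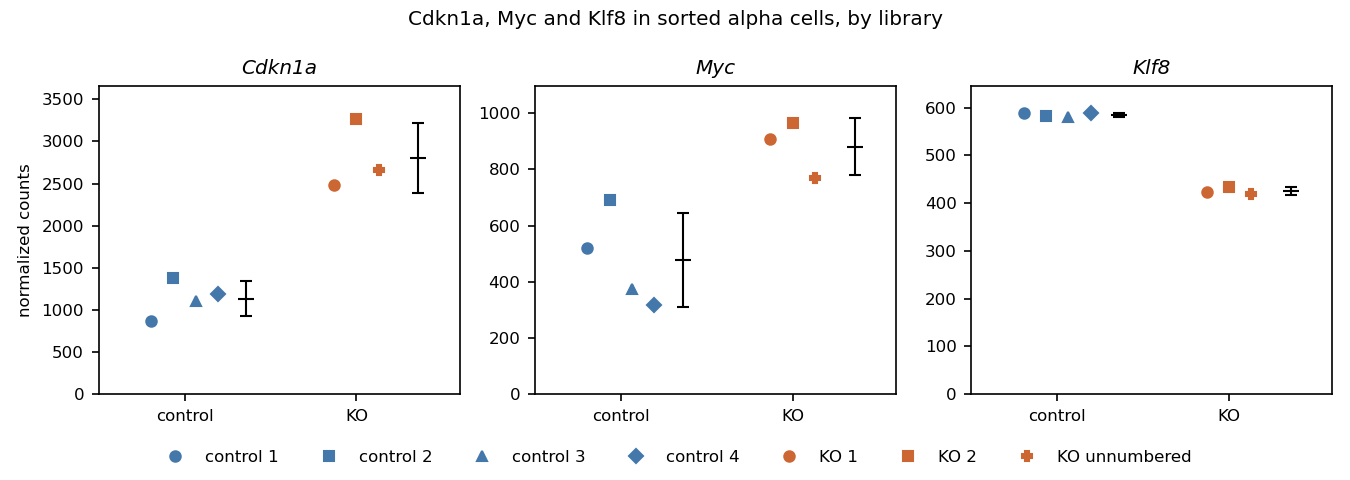
Normalized counts of Cdkn1a, Myc and Klf8 (vertical axes, each from 0) in 4 control (blue) and 3 KO (orange) libraries, with mean and SD in black. The groups do not overlap in any of the 3 panels, with Cdkn1a and Myc higher and Klf8 lower in KO.

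Early genes that sorting and dissociation are known to induce were read beside Klf2, Klf4, Klf6 and Klf10. Of 17 such genes 1 was past the DESeq2 threshold (background for higher calls 1.96%) and 4 had an unadjusted p under 0.05 (background 11.3%). The 1 past the threshold, Atf3, a stress-induced factor, rose with a log2 fold change of 0.78 (adjusted p 0.00221 by DESeq2, 0.108 by edgeR). Its levels were 6665, 7385, 8343 and 9666 normalized counts in controls and 10994, 12046 and 18271 in KO libraries. The median log2 fold change of the list was 0.36, with 14 genes above 0. Its summed level ran from 407842 to 534930 normalized counts in controls and from 523029 to 637824 in KO, with the largest sum in KO 2. Of the KO libraries, KO 2 had the most Klf4 and Klf6 and the least Klf10, and its Klf2 was just under that of the unnumbered library. The part of dissociation in the values of the Kruppel-like factors was not tested.

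Beyond the family, the 5 genes whose pattern over the 7 libraries lay closest to that of Klf4, among 12765 other genes with a mean of at least 100 normalized counts, were Thsd7a, Prkaa2, Mycbp, G6pc3 and Qsox1. Likeness was the root mean square difference of log2(normalized count + 1) after centring each gene on its own mean. The distances were 0.0684 for Thsd7a, 0.0795 for Prkaa2, 0.0800 for Mycbp, 0.0820 for G6pc3 and 0.0822 for Qsox1. Thsd7a, for example, had 1895, 1659, 2353 and 1894 normalized counts in controls and 1345, 1876 and 1482 in KO, with the same high value in control 3 and the same low values in KO 1 and the unnumbered KO library. None of the 5 was past the DESeq2 threshold. Klf11, the member closest to Klf4, was at rank 786 with a distance of 0.187, and Nkx2-2 was at rank 2450 with 0.228.

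**Figure D5:**
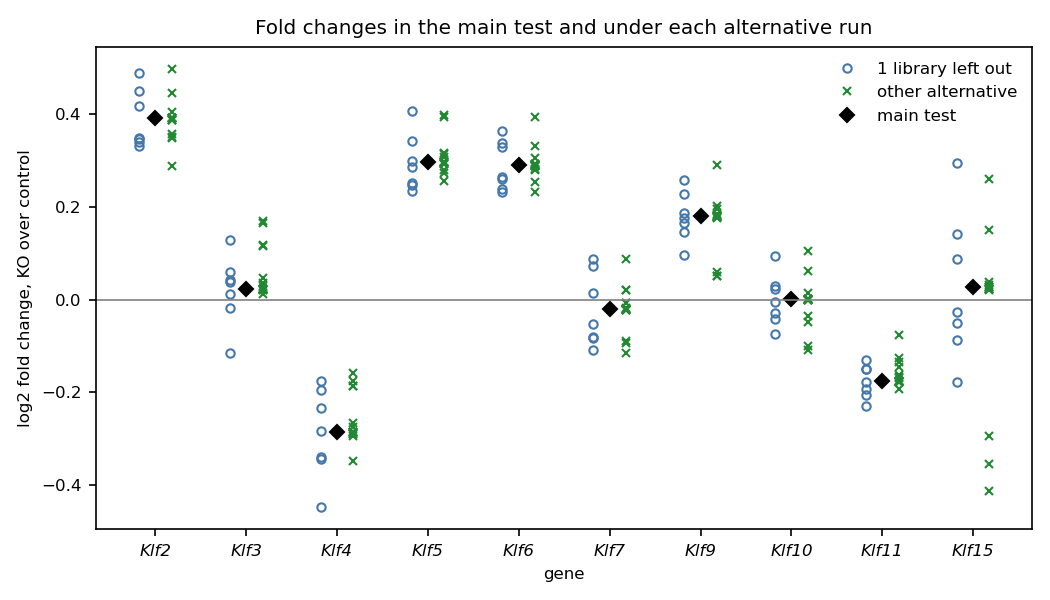
Log2 fold changes of KO over control (vertical axis) for the 10 Kruppel-like factors in the main test (black diamonds), with 1 library left out (blue circles) and under the other alternatives (green crosses). Klf2, Klf5, Klf6 and Klf9 stay above 0 and Klf4 and Klf11 below 0 in each fit shown, whereas Klf3, Klf7, Klf10 and Klf15 cross 0.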

How the data were processed

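RNA of sorted alpha cells was made into libraries with a strand-keeping SMARTer kit of Takara Bio for very small total RNA inputs, per the labels' protocols. The authors deposited 1 table of raw counts per gene. The submitters' processing notes name FastQC, STAR, featureCounts, DESeq2 and the build mm10, and the table's name mentions cutadapt. The strand setting of the counting is not given in the sources used here. Between 84.4% and 88.9% of counts from 1 to 10 were even, as when both mates of a pair are counted, so counting error is larger than the counts alone imply. Positions and exon lengths are from GENCODE M21 on GRCm38, whose identifiers and symbols matched all 55536 genes.

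The main test, named in the series' design text, was the DESeq2 1.42.0 Wald test in R 4.3.3 (default filters, no covariate), with Benjamini-Hochberg adjustment over all genes and a threshold of 0.05. The quasi-likelihood test of edgeR 4.0.16 was run beside it, and both were tested on simulated data. Intervals are the estimate with its standard error at 95%. The 10 genes and all lists were chosen with earlier results of these data known. Genes named are Nkx2-2, the 10 genes, relatives with a mean of at least 100 normalized counts, listed genes past the threshold and the 5 genes most like Klf4. Some listed genes are not reported here. Of the marker lists, besides alpha cells, those past the threshold were Iapp, Npy and Glp1r (beta), Ffar4 and Rbp4 (delta), Ppy and Pyy (gamma) and Spp1 (duct), all higher in KO, and C1qa (leukocyte), lower. Most other leukocyte genes did not follow C1qa: 6 of the 8 had estimates above 0, and the median among those tested was 0.52 on the log2 scale. The summed level of the 8 was nonetheless lower in every KO library, with 694 to 771 normalized counts against 914 to 1456 in controls. Acinar, endothelial, mesenchymal and Schwann cell lists had 0 such genes in DESeq2. Of these lists 2 genes had an unadjusted p under 0.05 in DESeq2 (background 11.3%) and 1 in edgeR (background 10.5%). In DESeq2 it was under 0.05 for 6 of 10 beta, 4 of 5 delta, 2 of 4 gamma and 5 of 9 duct genes. Estimates were above 0 for 10, 5, 3 and 8 of them. The groups did not overlap for 4, 2, 2 and 6 of them (background 11.4%). Alternatives covered tools, scaling, filters, halved counts, left-out libraries, depth and Y-linked covariates and replicate blocks.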

Additional observations from a re-analysis of the deposited data

How the results depend on the processing

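None of the 10 genes was called in 21 of 22 alternatives, and with library totals 1 was (Klf2). Over the 220 values of the 10 genes under these alternatives, 193 kept their direction. Klf4 stayed between -0.45 and -0.16, Klf2 between 0.29 and 0.50 and Klf6 between 0.23 and 0.39. Leaving out 1 library gave log2 fold changes from -0.0737 to 0.0947 for Klf10, from -0.18 to 0.30 for Klf15, from -0.12 to 0.13 for Klf3 and from -0.11 to 0.0872 for Klf7. For Klf10 the sign also changed in edgeR with TMM (-0.00071) or RLE factors (-0.0013), with at least 10 counts in 3 libraries (-0.0013), without the 2 deepest libraries (-0.0354) and with a term for them (-0.00061). Klf15 was -0.29 without the 2 deepest libraries, and Klf7 was 0.0884 with library totals and 0.0208 with the Y-linked covariate. The cause was not tested.

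DESeq2 called 769 genes. The number was 203 in edgeR with TMM and 205 with RLE factors, 1371 with a term for the 2 deepest libraries, 1245 with the Y-linked covariate, and from 430 (without KO 1) to 891 (without control 4) with 1 library left out. An independent filter tuned to 0.05, chosen after seeing the data, gave 791.

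With the replicate block, fitted on the libraries numbered 1 and 2 in both groups, 579 genes and 0 of the 10 were called, against 613 and 0 without the block. Klf10 was then -0.11 and Klf15 -0.35 with the block, and -0.10 and -0.41 without it. The numbers are not stated to mark shared animals or days. The deviations of same-numbered libraries had correlations of 0.29 and 0.28. Control 4 and the unnumbered KO library, whose column carries 4, had 0.48, so the 3 pairs that share a column number all correlated. Unlike-numbered control 3 and KO 2 had 0.38, above the value of control 2 and KO 2. A replicate block by column number on these 6 libraries, chosen after seeing the data, called 1000 genes and 0 of the 10, against 516 genes without control 3 and without the block. Klf10 was -0.0475 and Klf7 0.0218 with it. Klf12 was then past the threshold and Klf8 was not, and the calls of Nkx2-2, Cdkn1a, Myc and Atf3 were kept.

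By coding length, the ranks in controls were 7 for Klf10, 3 for Klf11, 9 for Klf2, 6 for Klf3, 5 for Klf7 and 2 for Klf9. By the longest transcript Klf5 was at 7 and Klf7 at 8, and the other ranks were as printed. With halved counts 0 of the 10 changed direction or call.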
